A study of Mus musculus with 2 samples.

Results

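The 10 genes described here encode RNA-binding regulators of alternative splicing that are known for their work in neurons. They are Rbfox1, Rbfox2 and Rbfox3, Nova1 and Nova2, Ptbp1, Ptbp2 and Ptbp3, Srrm4 and Qk. They were taken by gene symbol, and all 10 were found among the 55536 annotated genes of the deposited gene tables, of which 22028 are protein-coding. Total RNA came from female mice of the strain B6CASTF1/J, a first-generation cross between the inbred strains C57BL/6J and CAST/EiJ. The tissue was the left cerebral cortex at an age of 2 months, and the labels name no treatment. There was 1 group with 2 libraries, biological replicates 1 and 2, each begun from 300 ng of RNA and carrying ERCC spike-ins of a profile for stranded libraries with ribosomal RNA reduced. Both tissue samples have the same donor entry, so no label says in words that they are separate animals, and the spread between them may be technical. The tissue is a mixture of cell types, and no second condition was measured.

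Most mouse genes with several exons give more than 1 mRNA, and proteins that bind near an alternative exon decide how often it is kept. Rbfox and Nova proteins bind short motifs beside neuronal exons, and whether they raise or lower inclusion depends on the side of the exon they bind. Ptbp1 holds many neuronal exons back in non-neuronal and precursor cells, and its paralog Ptbp2 takes over in maturing neurons. Srrm4 promotes the inclusion of very short neuronal exons, and Qk is best known in glia, where it acts on myelin genes.

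The libraries held 31196858 and 32292150 expected counts in replicates 1 and 2, so that 3 counts, the limit a count of 0 allows, were 0.0962 and 0.0929 CPM, counts scaled to the library total. Levels are given as TPM, each transcript's length-corrected share of all transcripts on a fixed total. One set of tables was derived from alignments to the transcriptome (alignment-based), and another from the reads and an index without them (read-based). Neuron markers were present at 1 TPM or more in both libraries in 6 of 6 cases, with a summed level of 2963 and 2876 TPM in replicates 1 and 2. The 6 oligodendrocyte markers summed to 633 and 682 TPM, the 6 astrocyte markers to 372 and 369 TPM, the 6 microglia markers to 98.5 and 99.1 TPM and the 5 endothelial markers to 74.5 and 72.7 TPM. All of these were above 1 TPM in both libraries. Of the 6 mural and meningeal markers 5 were, Lum falling below. These markers are those of brain tissue, and no marker of cortex against other brain regions was examined. Each value below is a level over this mixture, and which of these cell types contributed to it was not resolved.

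All 10 regulators were expressed. Each reached at least 1 TPM, and also 10 TPM, in both libraries, against 58.8% of protein-coding genes and 27.5% of all annotated genes at 1 TPM. The share of all genes at 10 TPM was not counted. The Rbfox genes and Qk formed the upper group and Srrm4 and Ptbp3 the lower end. In bulk tissue a lower level can mean fewer cells that express the gene or less RNA per cell, and these cannot be told apart.

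**Figure D1:**
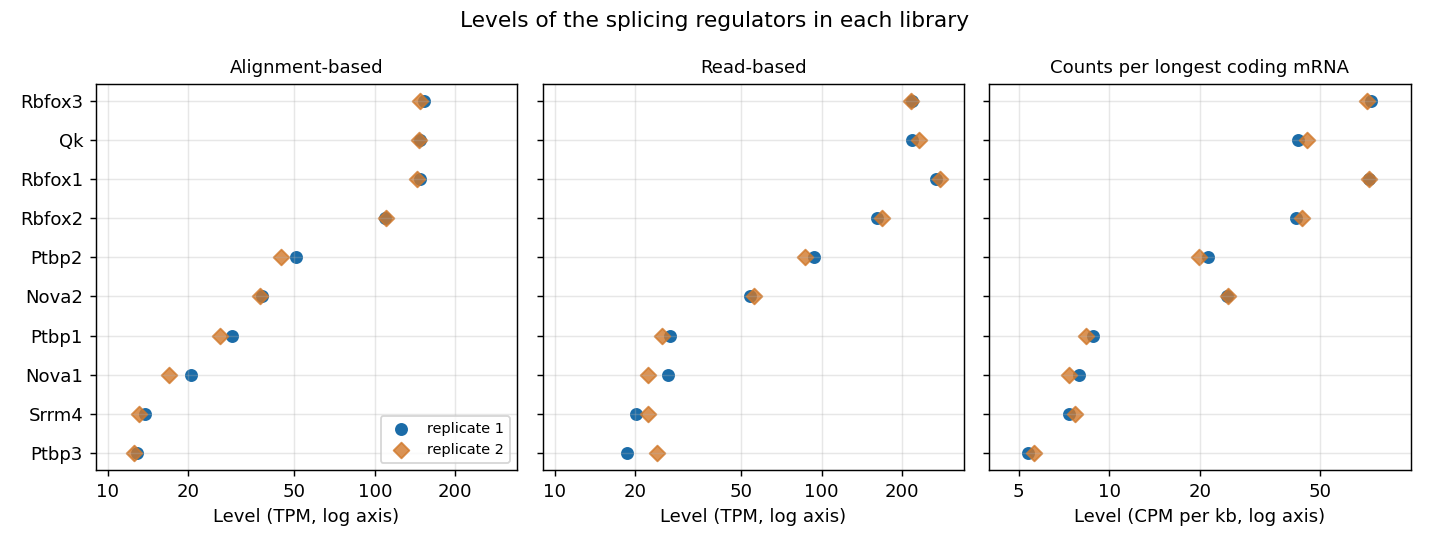
Levels of the 10 genes in replicate 1 (circles) and replicate 2 (diamonds), on log axes, as alignment-based TPM, read-based TPM and CPM per kb of the longest coding mRNA. Rbfox1, Rbfox3, Qk and Rbfox2 take the 4 upper places on every scale, and the order among them and at the lower end changes with the scale.

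The order of the alignment-based levels was Rbfox3, Qk, Rbfox1, Rbfox2, Ptbp2, Nova2, Ptbp1, Nova1, Srrm4 and Ptbp3. Of the 9 pairs of neighbours only Qk and Rbfox1 had ranges that overlapped between the libraries, but several of the others lay close, Rbfox3 being 1.03 times Qk and Srrm4 1.06 times Ptbp3. The largest step was that from Rbfox2 to Ptbp2, 2.31-fold. In the read-based tables most levels were higher, from 145 to 272 TPM on average for Rbfox1, 47.6 to 90.3 for Ptbp2 and 12.7 to 21.4 for Ptbp3. With both kinds rescaled to the same total over nuclear protein-coding genes, most mean levels were instead lower in the read-based tables. Qk fell from 323 to 295, Rbfox3 from 332 to 285 and Ptbp1 from 61.2 to 34.3. Only the means of Rbfox1 (320 to 358), Ptbp2 (105 to 119) and Ptbp3 (28 to 28.2) did not fall. For Ptbp3 the libraries went opposite ways, from 27.6 to 24.4 in replicate 1 and from 28.4 to 32 in replicate 2. Rbfox1 stood first by read-based TPM, 1.22 times Qk. The ranges of neighbours overlapped there at Qk and Rbfox3 and throughout the lower end from Ptbp1 to Srrm4. A further scale divided CPM by the length of the longest annotated coding mRNA. This scale does not depend on how reads were shared among isoforms, but its length need not be that of the main transcript. On it Nova2 (24.7 ± 0.175 CPM per kb, SD, n = 2) stood above Ptbp2 (20.5 ± 0.957), the reverse of the TPM order.

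Rbfox1, Rbfox2 and Rbfox3 encode proteins with a single, nearly shared RNA recognition motif, and Rbfox3 is the NeuN antigen by which neuronal nuclei are commonly identified. Rbfox3 (ENSMUSG00000025576.17, chr11:118489762-118911597, minus strand, mm10) had a level of 153 TPM in replicate 1 and of 148 TPM in replicate 2. Rbfox1 (ENSMUSG00000008658.16, chr16:5885355-7411526, plus strand), which spans 1526 kb, stood at 147 and 144 TPM. Rbfox2 (ENSMUSG00000033565.18, chr15:77078990-77307004, minus strand), which is also expressed in many cells outside the nervous system, stood at 109 and 110 TPM, the lowest of the family in both libraries. Of the summed family level Rbfox1 made up 35.9% and 35.8%, Rbfox2 26.7% and 27.5% and Rbfox3 37.4% and 36.8%. In the read-based tables Rbfox1 led, with 41.5% and 41.9%. The coding sequences are alike without being identical: aligned bases matched at 73.3% between Rbfox1 and Rbfox2, 71.9% between Rbfox1 and Rbfox3 and 72% between Rbfox2 and Rbfox3. No transcript of another gene matched any family member at 98% identity or more over 100 bases.

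Rbfox pre-mRNAs are themselves alternatively spliced near their ends, where a 40-base exon, long known from brain transcripts, and a 43-base exon, known from muscle, alternate and change the C-terminus. Both are shown with their counterparts in the paralogs because the estimates turn on them. They were read from GENCODE M21 transcripts in the sense of the gene, 5′ to 3′, and capitals mark positions that are not identical in all genes shown for that exon.
Rbfox1 40-base exon (chr16:7363865-7363904, plus strand): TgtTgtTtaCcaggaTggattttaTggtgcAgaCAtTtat
Rbfox2 40-base exon (chr15:77094451-77094490, minus strand): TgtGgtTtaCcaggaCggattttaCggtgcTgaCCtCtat
Rbfox3 40-base exon (chr11:118496351-118496390, minus strand): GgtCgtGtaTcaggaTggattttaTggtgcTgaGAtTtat
Rbfox1 43-base exon (chr16:7369801-7369843, plus strand): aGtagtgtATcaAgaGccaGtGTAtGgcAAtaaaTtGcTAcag
Rbfox2 43-base exon (chr15:77091812-77091854, minus strand): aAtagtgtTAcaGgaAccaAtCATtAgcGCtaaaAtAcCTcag

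The 40-base exon of Rbfox1 matched that of Rbfox2 at 85% of positions, and the 43-base exon matched its counterpart at 62.8%. No annotated Rbfox3 transcript skips the counterpart of the 40-base exon. Counterparts were sought only among exons of equal length, and Rbfox3 has no annotated exon of 43 bases, so one of another length could not have been found. Inclusion is estimated here as the TPM of annotated transcripts that hold the exact exon, as a share of these and of the transcripts whose intron spans it. The tables hold no junction reads, so such values are model estimates that depend on the annotation. Taking counts in place of TPM weights long transcripts more, and both are given for most exons where they part.

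In Rbfox1 the brain-type 40-base exon was included at 96.8% and 98.2% in replicates 1 and 2. The read-based estimates were 85.3% and 86.9%. The 43-base exon was included at 3.2% and 1.79% (14.7% and 13.1% read-based, 1.59% and 0.896% by counts), and the transcripts that hold it are exactly those that skip the 40-base exon. Thus all 4 estimates put the 40-base form far above the other, while the minor form was several times higher in the read-based tables. In Rbfox2, whose 2 exons were chosen for description after their values were seen, the 40-base exon was included at 75.9% and 78.9% and the 43-base exon at 12.3% and 11%. By counts these were 94.1% and 95.1%, and 2.2% and 1.91%. Rbfox2-201 and Rbfox2-202 hold neither exon. A 54-base exon of Rbfox1 (chr16:7306408-7306461) was included at 97.9% and 97.8%, and the further leading cassette exons of Rbfox2, of 54 and 147 bases, at 100% in every table.

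A 93-base exon lies within the part of the gene that encodes the RNA recognition motif, and its skipping is known to give a protein that no longer binds RNA. It is the leading cassette exon of Rbfox2 and of Rbfox3, and is shown with the Rbfox1 counterpart for that reason, with capitals as above.
Rbfox2 93-base exon (chr15:77105577-77105669, minus strand): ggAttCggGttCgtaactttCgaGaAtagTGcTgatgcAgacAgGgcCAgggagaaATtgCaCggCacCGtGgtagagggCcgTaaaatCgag
Rbfox1 93-base exon (chr16:7292185-7292277, plus strand): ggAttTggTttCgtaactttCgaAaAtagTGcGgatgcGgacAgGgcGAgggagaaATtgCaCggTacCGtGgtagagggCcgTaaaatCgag
Rbfox3 93-base exon (chr11:118502842-118502934, minus strand): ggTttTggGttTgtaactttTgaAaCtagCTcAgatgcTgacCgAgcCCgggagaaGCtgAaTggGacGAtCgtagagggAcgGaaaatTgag
The Rbfox2 exon matched Rbfox1 at 92.5% and Rbfox3 at 74.2%. In Rbfox2 it was included at 90.4% and 91.4% in replicates 1 and 2, at 83.7% and 86.7% in the read-based tables and at 97.9% and 98.2% by counts. In Rbfox3 it was included at 100% and 99.8%, and at 99.4% and 99.1% in the read-based tables. No annotated Rbfox1 transcript skips the exon, so no estimate can be formed there. A second Rbfox3 cassette, a 40-base exon of the untranslated 5′ part (chr11:118610159-118610198) unrelated in sequence to the exon printed above, was included at 63.4% and 63.7% (71.4% and 72.9% read-based, 55.1% and 54.7% by counts).

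Nova1 and Nova2 encode KH-domain proteins that bind YCAY motifs and were first known as antigens in a paraneoplastic neurological disease. Nova2 (ENSMUSG00000030411.16, chr7:18925888-18965319, plus strand), the main form of the neocortex, stood at 37.9 and 37 TPM in replicates 1 and 2. Nova1 (ENSMUSG00000021047.7, chr12:46694517-46818929, minus strand), better known from hindbrain and spinal cord, stood at 20.4 and 17 TPM. Nova2 was higher in both libraries, 1.86 and 2.17 times Nova1, and 3.09 and 3.39 times on the scale of CPM per kb. Aligned coding bases of the pair matched at 70.2%. Nova2 exons overlap the opposite-strand lincRNA Gm26821 over 31.7% of their bases, and that gene held 1 and 0 counts. Nova1 shares 310 exonic bases with the same-strand gene Gm33869, which held 109 and 119 counts beside the 1770 and 1687 of Nova1, so part of either value could belong to the other.

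The leading Nova1 transcript, Nova1-201, took 56.7% and 61.6% of the gene's TPM but 94.2% and 95.8% of its counts. The remaining TPM lay mostly in short models: Nova1-203, of 532 bases, took 19.8% and 23.1%, and the processed transcript Nova1-205, of 571 bases, 17.3% and 12.8%. A 72-base coding exon of Nova1 (chr12:46713498-46713569) was included at 100% in every table. A 65-base exon (chr12:46817386-46817450) that only Nova1-205 holds was included at 21.6% and 16.7% by TPM and at 1.96% and 1.37% by counts. Nova2-201 and Nova2-202 have the same sequence and differ only in their annotated reading frame. Each was given 50% in every table, and this equal split is no measurement of the 2 frames.

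The Ptbp genes encode polypyrimidine tract binding proteins. Ptbp2 (ENSMUSG00000028134.11, chr3:119718742-119784466, minus strand), the neuronal paralog, stood at 50.8 and 44.4 TPM in replicates 1 and 2. Ptbp1 (ENSMUSG00000006498.16, chr10:79854427-79864771, plus strand), the widely expressed form that falls in neurons, stood at 29.2 and 26.4 TPM. Ptbp3 (ENSMUSG00000028382.15, chr4:59471868-59549364, minus strand), known mainly from blood cells, stood at 12.9 and 12.5 TPM. The 3 genes kept this order in both libraries and on each scale, their ranges not overlapping in the alignment-based tables. Ptbp2 was 1.74 and 1.68 times Ptbp1 in replicates 1 and 2. That ratio depended on the quantification, being 3.49 and 3.44 in the read-based tables and 2.4 and 2.37 by CPM per kb. Ptbp2 made up 54.7% and 53.3% of the summed family level, Ptbp1 31.4% and 31.7% and Ptbp3 13.9% and 15%.

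Ptbp1 shares sequence with several other genes. Its counts were 868.9 and 851.97, not whole, and 252 of its bases match the processed pseudogene Gm4900 at 99.2%, which held 4.1 and 1.03 counts. Of its exonic bases 5.3% overlap Plppr3, a brain gene on the opposite strand with 1329 and 1347 counts. Exons of Ptbp1 also overlap, over 6.22% of their bases, the opposite-strand E130317F20Rik, with 114 and 109 counts, and over 9.22% the antisense gene Gm17134, with 0 counts in both libraries. Whether the authors' counting used strand is not given in the sources used here, so reads in these overlaps could have gone to either gene.

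Ptbp proteins limit their own production. Binding of PTBP1 leads to skipping of a 34-base exon in Ptbp1 and of the matching exon in Ptbp2, which shifts the reading frame and exposes the mRNA to nonsense-mediated decay. The exon is therefore shown for the whole family, with capitals at positions that are not identical in all 3 genes.
Ptbp1 34-base exon (chr10:79862014-79862047, plus strand): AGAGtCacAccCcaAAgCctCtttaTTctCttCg
Ptbp2 34-base exon (chr3:119724612-119724645, minus strand): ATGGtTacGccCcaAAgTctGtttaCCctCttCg
Ptbp3 34-base exon (chr4:59485339-59485372, minus strand): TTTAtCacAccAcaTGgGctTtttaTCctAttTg
The Ptbp1 exon matched that of Ptbp2 at 76.5% and that of Ptbp3 at 64.7%, and in Ptbp3 no annotated transcript skips it. In Ptbp2 the exon was included at 76.3% and 84.8% in replicates 1 and 2. Read-based values were 85.1% and 90.7%, and values by counts 95.4% and 97.2%. The TPM estimate rests on Ptbp2-206, a nonsense-mediated decay model of 576 bases that skips the exon and held 90.87 and 54.06 counts. In Ptbp1 the exon was included at 100% and 82.1%, and at 91.9% and 84.1% in the read-based tables. Inclusion was thus the larger share in every table and both libraries. The 2 libraries differed in Ptbp1 by more than the 4.42 percentage points that were the median difference between libraries over the 10291 annotated cassette exons between 5 and 95%, and by less than the ninetieth percentile of 18.7 points.

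A 78-base exon of Ptbp1 (chr10:79860117-79860194), which lengthens the linker between RNA recognition motifs and is known to alter the repressive strength of the protein, was included at 69.5% and 44.3%. The read-based values were 88.8% and 79.7%. Replicate 1 was the higher in both kinds of table, and the distance between replicates in the alignment-based tables exceeded that ninetieth percentile. The transcripts that decide this estimate summed to only 9.55 TPM on average. Among those that hold the exon is the retained-intron model Ptbp1-205, with 2.72 and 2.27 TPM. Another is Ptbp1-216, whose deposited TPM bounds overlapped between the libraries, 1.15 to 4.31 and 0.214 to 3.07. The further leading cassette exons moved less: a 31-base Ptbp1 exon at 100% and 98.9%, a 117-base Ptbp1 exon at 4.66% and 0%, and the 93-base and 140-base Ptbp2 exons at 100% in both alignment-based tables. In Ptbp3 a 34-base exon near the start of the gene (chr4:59546149-59546182), no counterpart of the one printed above, was included at 23.4% and 9.59% by TPM and at 15.1% and 5.97% by counts. The order of the libraries was opposite for it in the read-based tables, 17.9% and 29.7%. The 147-base and 170-base exons of Ptbp3 were included at 94.6% or more in all tables.

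**Figure D2:**
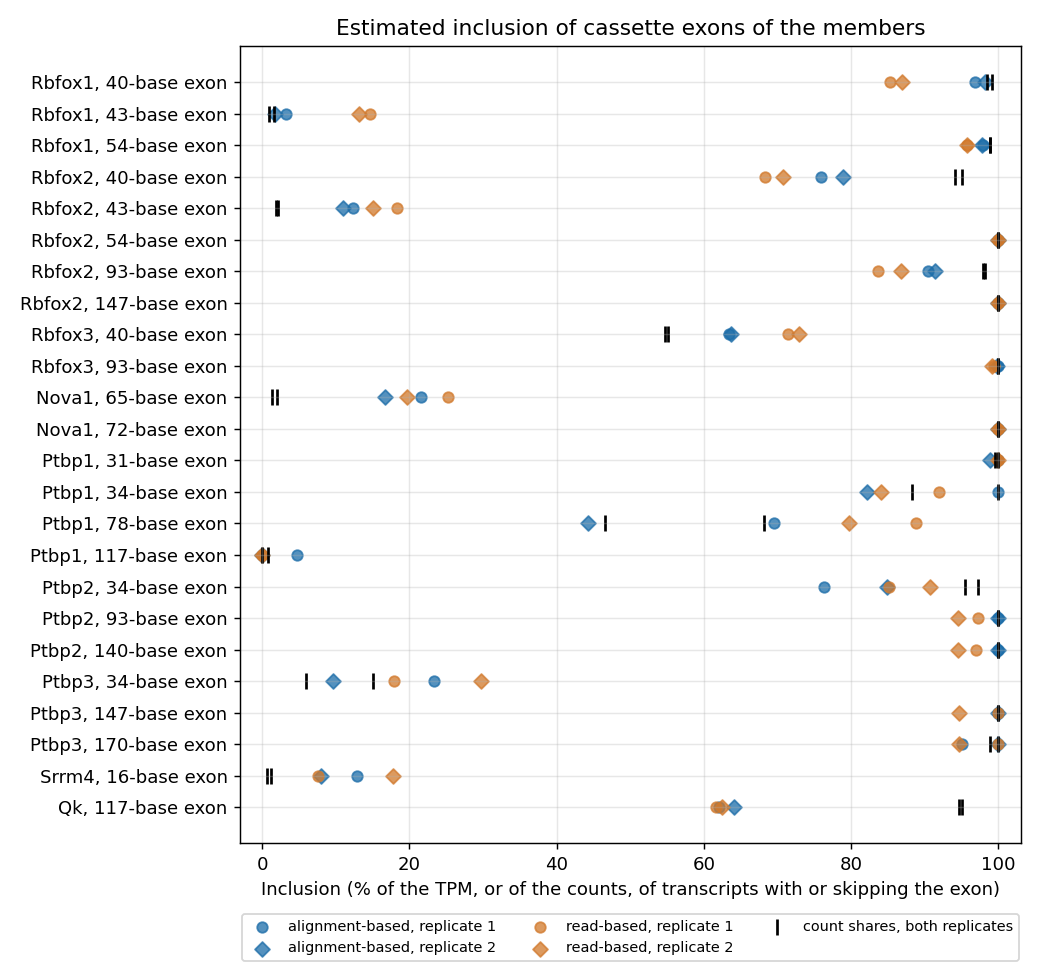
Estimated inclusion of 24 cassette exons in the members, in percent of the TPM (coloured symbols) or of the alignment-based counts (black ticks) of transcripts that hold or skip each exon, for replicates 1 and 2 and both kinds of table. The exons whose rare form is a short annotated transcript, such as the 117-base exon of Qk, lie far apart between the TPM and the count estimates.

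Srrm4 (ENSMUSG00000063919.11, chr5:116439275-116591817, minus strand), also called nSR100, encodes a serine- and arginine-rich protein that acts on neuronal microexons. It stood at 13.8 and 13.1 TPM in replicates 1 and 2, from 1709 and 1850 counts. Srrm4-201 took 74.7% and 78% of its TPM and 90.6% and 89.4% of its counts. Its only cassette exon is itself a microexon and is printed as such.
Srrm4 16-base exon (chr5:116454673-116454688, minus strand): gaggagtccttgcttg
The exon is held by Srrm4-205, a nonsense-mediated decay model of 682 bases with 18.13 and 11.33 counts. Its inclusion was 12.9% and 7.99% by TPM and 1.16% and 0.68% by counts, and read-based TPM gave 7.57% and 17.8%, with the libraries in the opposite order. The direction between the libraries was therefore not settled for this exon.

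Qk (ENSMUSG00000062078.15, chr17:10202601-10319854, minus strand) encodes the STAR-family protein Quaking, whose loss from myelin-forming cells causes the tremor of the quaking mouse. It stood at 147 and 146 TPM in replicates 1 and 2, overlapping Rbfox1 on that scale. By CPM per kb it was lower than Rbfox1, 43.7 ± 2.16 against 73 ± 0.0329 (SD, n = 2), and read-based TPM also put it lower, 224 ± 9.47 against 272 ± 5.79. For Rbfox1 the length behind CPM per kb was the 3061 bases of its leading transcript Rbfox1-201. For Qk it was the 8547 bases of Qk-204, while the more abundant Qk-206 and Qk-201 have 5428 and 6737 bases. The isoforms of Quaking differ at the C-terminus, where the longest keeps the protein in the nucleus. Qk-206, with the 319 codons of the isoform QKI-6, took 43.5% of the counts in each library. Qk-201, with the 325 codons of QKI-7, took 30% and 30.6%. Qk-204, named after its values were seen, has the 341 codons of the nuclear QKI-5 and took 7.12% and 7.31%. A further model, Qk-202, is annotated as a nonsense-mediated decay target but has the same 319 codons as Qk-206, and it took 13.2% of the counts in each library. The order Qk-206, Qk-201, Qk-204 also held by alignment-based TPM, at 30.5% and 31.7%, 16.9% and 17.9%, and 3.15% and 3.37%. In the read-based tables Qk-206 and Qk-201 were nearly equal by TPM, 23.7% and 24% against 22.9% and 24%, with 10% and 10.2% on Qk-202. By read-based counts Qk-201 was above Qk-206, 41% and 42% against 33.8% and 33.4%, with 15.4% and 15.3% on Qk-202, so it stood below the sum of the 2 models with 319 codons.

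By TPM the leading Qk transcript was neither of these but Qk-205, a model of 650 bases that is all coding and ends within the gene. It took 36.2% and 34.7% of the TPM and 5.34% and 4.92% of the counts. It alone decides the estimate for the leading cassette exon, of 117 bases (chr17:10273947-10274063), which was included at 62% and 64.1% by TPM and at 94.6% and 95.1% by counts. The read-based tables gave 61.6% and 62.5%, so the kind of table moved the value less than the choice of TPM or counts.

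A coding exon whose length is no multiple of 3 shifts the reading frame when it is skipped without another change. Of the 21022 annotated cassette exons of 7248 genes that could be estimated, non-coding exons included, 55.8% had such a length. Among the printed exons those of 40, 43, 34 and 16 bases had it, but not that of 93 bases. The lengths of 40 and 43 bases differ by a multiple of 3. The exchange of these exons in Rbfox1 described above therefore does not itself shift the frame.

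**Figure D3:**
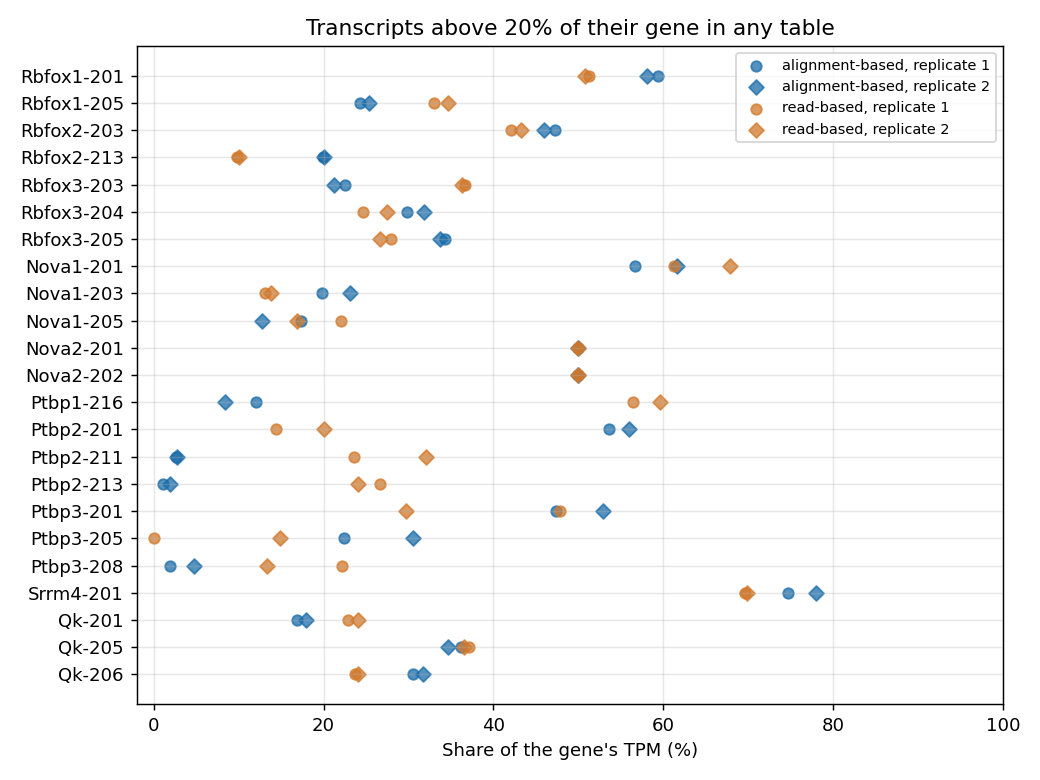
Share of the gene's TPM, in percent, of each transcript that exceeded 20% in any table, for replicates 1 and 2 and both kinds of table. Symbols of the same colour lie close together for most transcripts, and the kinds of table lie far apart for Ptbp1-216, Ptbp2-201, Ptbp2-211 and Ptbp2-213.

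The transcript with the highest TPM was shared by the alignment-based and read-based quantifications in 7 of the 10 members, against 75% of 11702 genes. The members that parted were Rbfox3, Ptbp1 and Ptbp2. In Rbfox3 the coding transcripts Rbfox3-205 (34.3% and 33.7%), Rbfox3-204 (29.8% and 31.8%) and Rbfox3-203 (22.5% and 21.2%) shared the gene, and Rbfox3-203 led the read-based tables with 36.7% and 36.3%. Ptbp2-201, a coding transcript, led the alignment-based tables with 53.6% and 55.9%. The read-based tables gave it 14.4% and 20.1%, and placed 26.7% and 24.1% on the coding Ptbp2-213 and 23.6% and 32.1% on Ptbp2-211, a retained-intron model of 491 bases. In those tables the lead went to Ptbp2-213 in replicate 1 and to Ptbp2-211 in replicate 2. Ptbp1 was split over many transcripts in the alignment-based tables, where the retained-intron model Ptbp1-213 had 18.1% and 14.7% and the coding Ptbp1-209, of 375 bases, 13.8% and 17.6%. Ptbp1-213 led in replicate 1 and Ptbp1-209 in replicate 2. The read-based tables gave most of it, 56.4% and 59.6%, to the coding Ptbp1-216, which had 12% and 8.42% in the alignment-based ones.

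Among the members whose leading transcript was shared, Rbfox1-201 took 59.4% and 58.1% and Rbfox1-205 24.3% and 25.4%. Rbfox2-203 took 47.3% and 45.9%, and the model Rbfox2-213 of 882 bases 19.9% and 20.1%. Ptbp3-201 took 47.4% and 52.9%. Ptbp3-205 took 22.4% and 30.5%, and the read-based table of replicate 1 gave it 0.0057%. Ptbp3-208 exceeded 20% only there, at 22.2%.

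Transcripts annotated as retained introns, nonsense-mediated decay targets or processed transcripts are counted here as non-coding, by annotation class alone: Qk-202, which carries a full set of 319 codons, is among them. Ptbp1 had the highest share of them by TPM in the alignment-based tables, 57.6% in replicate 1 and 48.6% in replicate 2, between percentile 75 (33.3% and 32.3%) and percentile 95 (67.7% and 66.9%) of 11704 protein-coding genes with several transcripts. Retained introns made up 54.7% and 41% of Ptbp1. Ptbp2 followed with 28.6% and 21.3%, and its nonsense-mediated decay models made up 18.3% and 11.7%. In the read-based tables Ptbp2 exceeded Ptbp1, 49% and 44.7% against 41.3% and 35.6%. By counts the shares were 52.7% and 50.2% in Ptbp1 and 16.5% and 13.6% in Ptbp2.

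At the other end, Nova2 has no non-coding transcript annotated, and Rbfox1 had 1.24% and 0.982%, Rbfox2 4.47% and 4.86% and Rbfox3 4.4% and 5.28%, all below the median gene at 14.6% and 14.2%. The read-based tables gave Rbfox3 0% in both libraries, and by counts Rbfox2 had 0.605% and 0.602% and Rbfox3 0.483% and 0.598%. Nova1 had 23.5% and 15.3%, Srrm4 17.6% and 17%, Qk 13.2% and 12.3% and Ptbp3 10.6% and 2.56%. By counts these were lower in Nova1, 3.79% and 2.03%, in Srrm4, 6.04% and 8.5%, and in Ptbp3, 1.87% and 0.228%, but not in Qk, 14% and 13.7%. RNA-seq of total RNA also reads unspliced precursor, and its part in the retained-intron values was not tested.

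**Figure D4:**
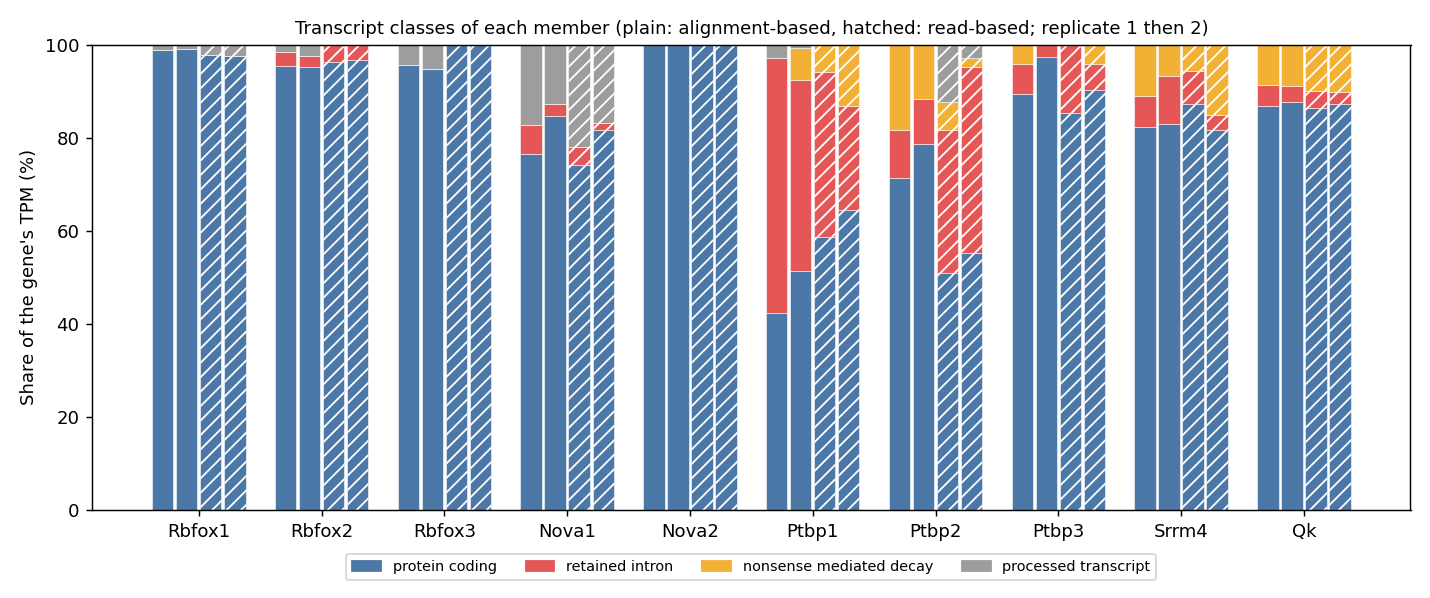
Share of each member's TPM, in percent, in transcripts annotated as protein coding, retained intron, nonsense-mediated decay or processed transcript, with plain bars for the alignment-based and hatched bars for the read-based tables, replicate 1 before replicate 2. Ptbp1 and Ptbp2 show the largest non-coding shares in both kinds of table, and Nova2 has none annotated.

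Between the libraries no member was called different. The rule for a call asked for a mean count of 10 or more, and for an exact 95% interval of the scaled log2 ratio (replicate 2 over replicate 1) that lay beyond 2-fold as a whole. It called 0 of the 10 members and 0.307% of 18562 genes. At a limit of 1.5-fold it called 0 members and 0.479% of genes, and from read-based counts 0 members and 0.218% of 20619 genes. The members' median ratio was 0.04, and that of all genes tested 0.00. Ratios were above 0 in 6 members and below in 4. The direction of TPM differed from that of the scaled counts, 9 of the 10 members having the higher TPM in replicate 1. The same share over all genes was not counted. TPM rescaled to the total of nuclear protein-coding genes was higher in replicate 2 for all members but Nova1, Ptbp1 and Ptbp2. In replicates 1 and 2 it was 315 and 325 for Rbfox1 and 314 and 331 for Qk, but 109 and 101 for Ptbp2. Why the directions differ was not tested.

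Among the members only the intervals of Qk and Rbfox2 left out equality. The share of all genes whose intervals did so was not counted. Some listed genes outside the members did so too, such as Map2, 0.09 (0.07 to 0.11), and Ddx5, −0.06 (−0.09 to −0.03). Others did not, such as Syt1, 0.00 (−0.02 to 0.02). Qk had 11212 and 12446 counts and a log2 ratio of 0.13 (0.09 to 0.17), and Rbfox2 8972 and 9711 counts and a ratio of 0.09 (0.05 to 0.13). Oligodendrocyte markers had a median ratio of 0.16, with 5 of 6 above 0, astrocyte markers one of 0.07 and neuron markers one of 0.03. Their part in the ratio of Qk was not tested. The lowest ratio was that of Nova1, −0.09 (−0.19 to 0.01). Intervals were built from 1 count on each side, so they cover counting error only and not the uncertainty of assigning reads to genes. PCR copies cannot be told from separate molecules here, so the intervals may be too narrow even for counting error. With 1 library on each side a ratio compares these libraries and carries no p-value.

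Between the quantifications Ptbp1 stood apart. Both kinds of level were first rescaled to the same total over nuclear protein-coding genes, and 0.01 TPM was added before the log2 ratio. Ptbp1 was lower in the read-based tables by a log2 ratio of −0.83 in replicate 1 and −0.84 in replicate 2, from 62.6 and 59.8 rescaled TPM to 35.2 and 33.4. It was the only member beyond 1.5-fold in both libraries, 1 of 10, against 4.12% of 12934 genes. The other members lay between −0.38, for Nova1 in replicate 2, and 0.19, for Ptbp2 in replicate 2, around a median of −0.08 over all genes.

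**Figure D5:**
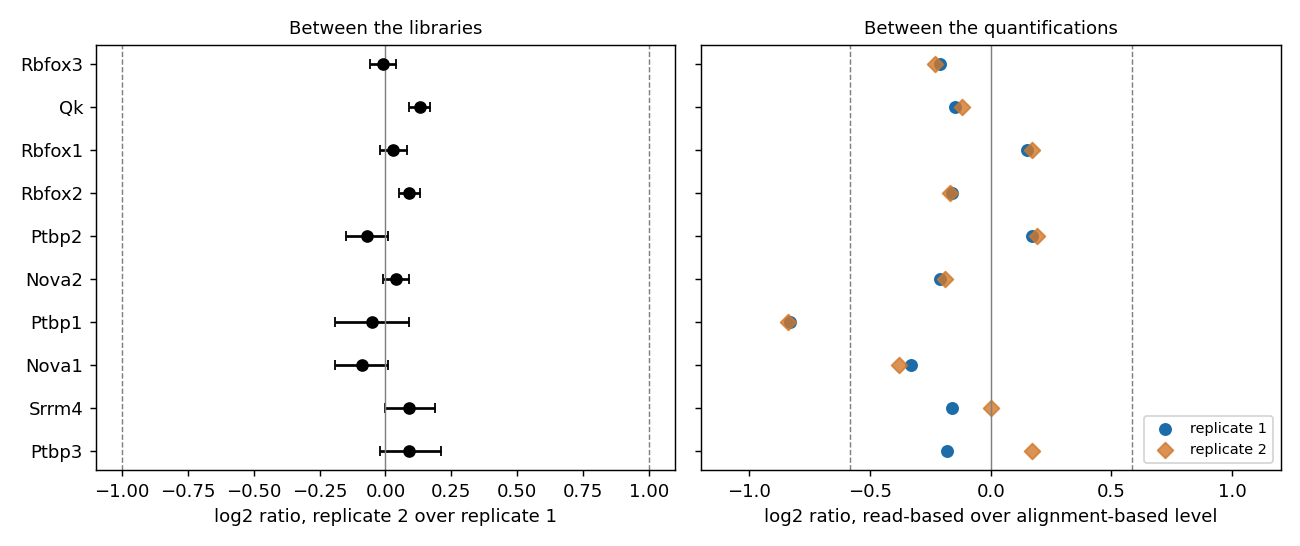
Left, scaled log2 ratio of replicate 2 over replicate 1 for each member, with its exact 95% counting interval and dashed lines at 2-fold. Right, log2 ratio of read-based over alignment-based level in each replicate, with dashed lines at 1.5-fold, beyond which Ptbp1 lies at −0.83 and −0.84.

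Partners and relatives of the members were also present. The 8 proteins of the large assembly of splicing regulators, with which Rbfox proteins are found in the nucleus, were at 1 TPM or more in 8 of 8 cases, from the RNA helicase gene Ddx5 at 321 and 279 TPM to Ilf2 at 37.2 and 32.1 TPM. Of 4 cofactors and relatives of PTB proteins all 4 passed, from Hnrnpl at 209 and 185 TPM to Raver2, which binds PTB, at 9.36 and 9.52 TPM. The 8 KH and STAR relatives of Nova and Qk ran from Pcbp2, a poly(C)-binding protein, at 230 and 212 TPM to Khdrbs2 at 6.41 and 5.48 TPM. Among the 5 relatives of Srrm4 and partners in microexon splicing, Srrm2 was highest at 315 and 287 TPM, and Srrm3, the closest relative in microexon function, lowest at 48 and 46.5 TPM. Srrm3 was thus above Srrm4 in both libraries. No gene of these lists was called between the libraries.

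Genes upstream of Srrm4 and Ptbp1 lay far apart. Rest, the repressor of neuronal genes that Srrm4 is known to counteract through splicing, stood at 1.86 and 1.56 TPM, the lowest of the 3. Mir124a-1hg, a host gene of a neuronal microRNA known to lower Ptbp1, was highest at 173 and 160 TPM. The host transcript's level is not that of the mature microRNA, which was not measured in these tables.

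The 8 target genes with an exon known to be under control of the members were all at 1 TPM or more and none was called. Dlg4, which encodes the synaptic scaffold PSD-95, was highest at 385 and 374 TPM, and Fmnl3 lowest at 3.74 and 4.26 TPM. Exons of 2 of these genes were chosen for description after their values were seen. The 18-base neuronal exon of Src (chr2:157458843-157458860), which Ptbp1 represses, was included at 80.5% and 83.2%, and at 72.6% and 74.2% in the read-based tables. The 45-base exon of Mag (chr7:30900352-30900396), a myelin gene whose splicing Qk controls, was included at 83.5% and 83.2%. Its read-based values were 81.7% and 79.3%. In both exons the alignment-based values of the libraries differed by less than the median of 4.42 points given above. Because the exons were chosen with these values seen, that closeness cannot be read as a result about the target genes. The tables of 1 tissue and age give no contrast in the level of any regulator, so these values stand beside the regulators' levels and do not test their effect.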

How the data were processed

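For each library the authors deposited gene and transcript tables with expected counts and TPM, derived from alignments, and a transcript table with estimated counts and TPM derived from the reads, all on mm10 with GENCODE M21 per the file lists deposited with each library. The bounds of TPM in the deposited transcript tables were not used for tests. Which aligner and quantifiers were run is not given in the sources used here. The members and lists were chosen with earlier results of these data known.

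Expected counts were rounded. Scaling was by TMM in edgeR 4.0.16 under R 4.3.3, on annotated genes whose mean count reached 10, and log2 ratios used a prior count of 0.5 and Clopper-Pearson 95% intervals (scipy 1.17.1). The interval rule and exon search were tested on simulated data. Exon sequences were cut from GENCODE M21 transcripts by coordinates, and shared sequence was searched with blastn 2.17.0 (98% identity, 100 bases). CPM per kb divides counts, scaled to the total of annotated genes, by the length of the longest coding mRNA.

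All 10 members were named, the highest and lowest gene of each list, up to 3 cassette exons per member by summed TPM with the 34-base Ptbp exons, leading transcripts and those above 20%. The reference is C57BL/6J, and reads of CAST/EiJ alleles were quantified against it. Alternatives were DESeq2 1.42.0 size factors, totals, spike-ins, other thresholds, counts and the read-based tables. Some exons of the target genes are not reported here.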

Additional observations from a re-analysis of the deposited data

How the results depend on the processing

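No member was called between the libraries under DESeq2 size factors, total counts, spike-in totals, no minimum count, a 1.5-fold limit or read-based counts, and the log2 ratios of all 10 stayed within their main intervals under the scaling and read-based alternatives. All 10 stayed at 1 TPM or more in the read-based tables, after rescaling, at a 10 TPM limit and without either replicate. The levels themselves moved by more than the spread between replicates in 9 of 10 members with read-based TPM and in 10 of 10 after rescaling. Rescaling a table to the total of fewer genes raises all its levels by construction, so the outcomes after rescaling say little about the members. The leading transcript was the same in 7 members without replicate 1, without replicate 2 or with coding transcripts only, against 74%, 74.2% and 80.4% of genes. By counts it was the same in 6 members, as Qk parted as well, against 82.6% of genes. The number of members' cassette exons between 5 and 95% inclusion was 12 by TPM and 17 in the read-based tables, but 6 by counts. Over all genes it was 10291 of 21022 exons by TPM, and was not counted for the other settings. The members' median non-coding share was 10.3% by TPM, 12.2% in the read-based tables and 2.07% by counts, an alternative chosen after seeing the data, as was CPM per kb. Counts weight short transcripts less by construction. Of 24 named exons, 13 moved by more than the spread between replicates in the read-based tables and 11 by counts. No paired analysis was possible because there was only 1 group. Leaving out a replicate gives no ratio with 2 libraries. Depth limits minor transcripts, Srrm4-205 resting on 18.13 and 11.33 counts.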
